A study of Homo sapiens with 6 samples.

Results

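The NRF2 antioxidant pathway was followed through 8 genes: the transcription factor NFE2L2, which encodes NRF2, its inhibitor KEAP1, and the target genes GCLC, GCLM, TXNRD1, SRXN1, NQO1 and HMOX1. They were taken by gene symbol from the 23228 genes listed in each count file, and all 8 were present and passed the filter on low counts. Poly(A) RNA was sequenced in 6 libraries. According to the labels, all cells were MDA-MB-231, a long-established line from a human triple-negative breast cancer with mesenchymal features. In 3 libraries, here called shSCUBE3-labelled, the cells had received lentivirus with short hairpin RNA against SCUBE3, a gene for a secreted and cell-surface protein, and in the other 3, called scramble, lentivirus with a scrambled hairpin. Both kinds of cells were kept in DMEM with serum and selected with puromycin for a week. The labels give neither the number of hairpins used nor whether the libraries of a group came from separate cultures. The p-values therefore rest on a spread between libraries that may be technical. The question addressed is whether the pathway's transcripts differ between cells with the hairpin against SCUBE3 and cells with the scrambled one.

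NRF2 is made constantly and, in unstressed cells, is held in the cytoplasm by KEAP1, an adaptor that hands it to the CUL3 and RBX1 ubiquitin ligase for destruction. Oxidants and electrophiles modify cysteines of KEAP1, newly made NRF2 then reaches the nucleus, pairs with a small MAF protein and binds antioxidant response elements. Its classical targets make glutathione, keep thioredoxin reduced, detoxify quinones and break down heme. Because NRF2 is controlled largely through its stability, its activity is not read from the level of its own mRNA.

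The groups differed across most of the transcriptome. Reads assigned to genes ran from 24249429 to 25520901 in shSCUBE3-labelled libraries and from 21348509 to 24234762 in scramble libraries. SCUBE3 itself had 99, 107 and 101 reads in shSCUBE3-labelled libraries, against 96, 91 and 80 in scramble libraries, a log2 fold change of 0.025 with an SE of 0.14 (adjusted p = 0.871, edgeR quasi-likelihood test; 95% interval of the ratio 0.834 to 1.24). The targeted mRNA was therefore not measurably lower, and all directions below follow the labels. Whether the groups were the same cells apart from the hairpin was not tested, so each fold given here is a difference between the labelled groups and is not shown to be an effect of the hairpin. All 10 genes listed as expressed in MDA-MB-231 were read in both groups, 6 of them higher and 4 lower in shSCUBE3-labelled libraries, and S100A4 had 13774 to 14492 reads in shSCUBE3-labelled libraries and 44 to 67 in scramble libraries. Their summed level was 8612 to 8785 CPM (reads relative to the TMM-adjusted library size) in shSCUBE3-labelled libraries and 9982 to 10431 CPM in scramble libraries. Of 3 genes listed as deleted in this line, CDKN2B and MTAP had 0 reads in all libraries and CDKN2A had 1 read, in scramble. Luminal and epithelial markers summed to 760 to 777 CPM in shSCUBE3-labelled libraries and 734 to 762 CPM in scramble libraries, of which ESR1 and PGR were at 0 in the shSCUBE3-labelled group. Of these 10 markers 3 were higher and 5 lower. FOXA1 had 1 to 2 reads in shSCUBE3-labelled libraries and 480 to 490 in scramble libraries. The 3 higher ones were CDH1, GATA3 (fold 2.62) and KRT19 (fold 1.92). CDH1 had 42 to 58 reads in shSCUBE3-labelled libraries and 0 to 2 in scramble libraries, so the list did not move in 1 direction. Leukocyte markers summed to 6.14 to 6.85 CPM in shSCUBE3-labelled libraries and 0.239 to 0.590 CPM in scramble libraries, 1 of 6 higher, with MS4A1 at 0 throughout and CD3E at 0 in scramble. The higher one was CD14, with 148 to 167 reads in shSCUBE3-labelled libraries and 3 to 9 in scramble libraries, and the other 5 were too low to be tested. Fibroblast markers summed to 26.2 to 29.5 CPM in shSCUBE3-labelled libraries and 5.05 to 6.25 CPM in scramble libraries, 4 of 6 higher, with DCN at 0 throughout and LUM at 0 in scramble. The other 2, PDGFRA and DCN, were too low to be tested. Among all 13606 genes tested, 43.4% were called higher and 42.5% lower, so these counts of markers set no cell type apart. The part of these marker differences in the results was not tested, and in bulk RNA a change in the number of cells cannot be told apart from a change in RNA per cell.

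Between the groups, 5 of the 8 pathway genes were higher in shSCUBE3-labelled libraries, 2 were lower and NFE2L2 was not called (edgeR quasi-likelihood test, adjusted p threshold 0.05). Of all 13606 genes tested, 43.4% were called higher and 42.5% lower, 85.9% in either direction, and for 85.8% the libraries of the groups did not overlap, so a call by itself sets none of these genes apart. The sizes ran from a log2 fold change of 3.19 for HMOX1 to -0.40 for GCLC. The median over the 8 genes was 0.39, against 0.01 over all genes tested. Regardless of direction, the median size was 0.41 over the 8 genes and 0.64 over all genes tested. A change of at least 2-fold was seen in 2 of the 8, and in 4247 of all 13606 genes. By size the 8 genes therefore did not stand out as a set. Reads in the 8 genes together made up 0.152% ± 0.00180 of reads in genes in shSCUBE3-labelled libraries and 0.0944% ± 0.00194 in scramble libraries (SD, n = 3 each). TXNRD1 supplied 53.6% ± 0.266 of those reads in shSCUBE3-labelled libraries and 36.0% ± 0.158 in scramble libraries. The other 7 genes made up 0.0707% ± 0.00123 of reads in genes in shSCUBE3-labelled libraries and 0.0604% ± 0.00118 in scramble libraries.

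**Figure D1:**
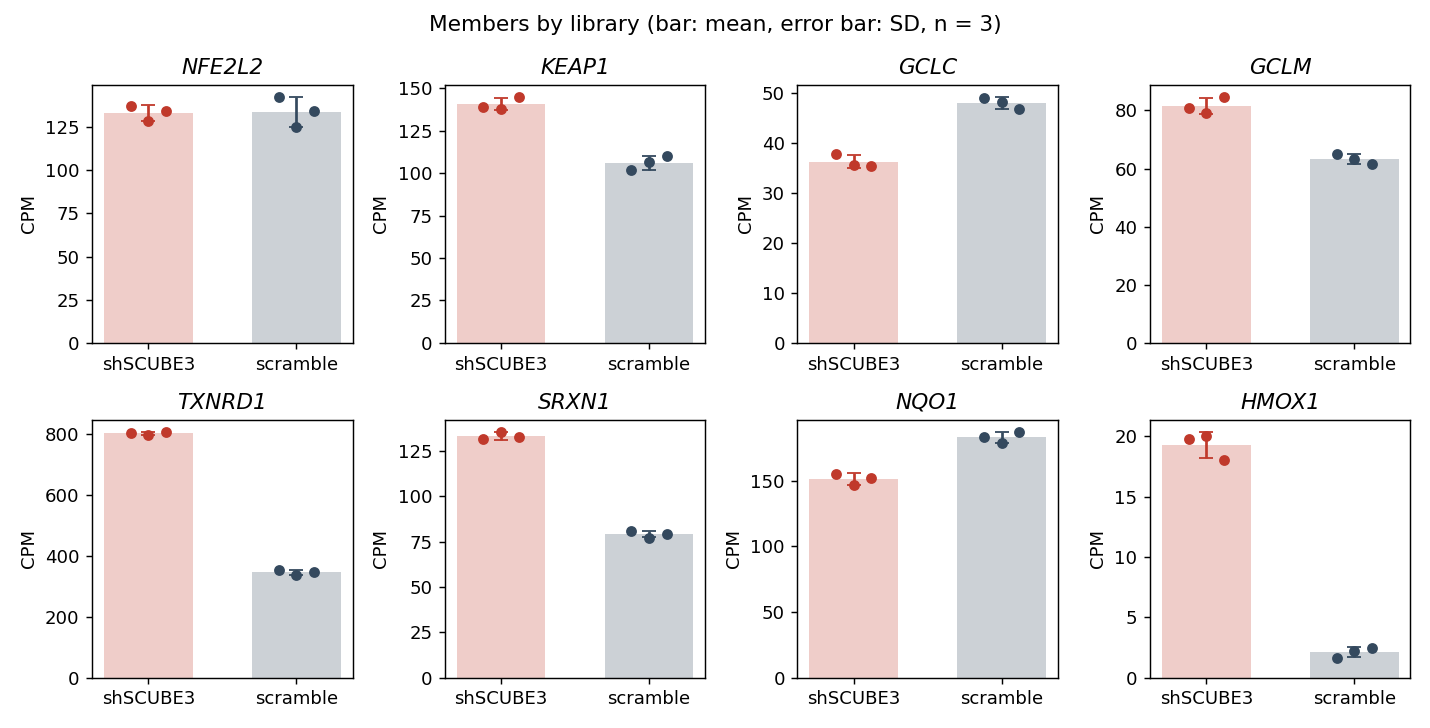
Level of each of the 8 genes in CPM on a linear axis that starts at 0 (points: libraries; bars: group means; error bars: SD, n = 3), with shSCUBE3-labelled libraries left and scramble libraries right. The groups overlap for NFE2L2 only; HMOX1 lies between 18.0 and 20.0 CPM in shSCUBE3-labelled libraries and between 1.64 and 2.48 CPM in scramble libraries.

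Among the regulators, the mRNA of NFE2L2 was close to level. It stood at 137, 128 and 134 CPM in shSCUBE3-labelled libraries, against 142, 125 and 134 CPM in scramble libraries. The scramble libraries span the whole range of the other group. The log2 fold change was -0.0064 with an SE of 0.041 (adjusted p = 0.885, edgeR quasi-likelihood test), with a 95% interval of the ratio from 0.940 to 1.05. Its sign turned with library totals as the only scaling (0.045), without shSCUBE3 replicate 2 (0.025) and without scramble replicate 1 (0.034). AGPS, annotated on the opposite strand where it overlaps NFE2L2, had 2812, 2846 and 2598 reads in shSCUBE3-labelled libraries and 4805, 4255 and 4377 in scramble libraries, and the sources used here do not say whether the counting used strand.

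KEAP1, the adaptor that keeps NRF2 low, was higher. It measured 139, 138 and 145 CPM in shSCUBE3-labelled libraries, against 102, 106 and 110 CPM in scramble libraries. All 3 shSCUBE3-labelled libraries lay above all scramble libraries. The fold was 1.33 (95% interval 1.26 to 1.40; edgeR quasi-likelihood adjusted p = 1.56e-12). Within a library there were 0.947 ± 0.0332 NFE2L2 reads per KEAP1 read in the shSCUBE3-labelled group and 1.26 ± 0.118 in scramble (SD, n = 3 each). That ratio does not depend on library size, and the groups did not overlap.

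The 2 subunits of glutamate-cysteine ligase, which catalyses the limiting step of glutathione synthesis, moved in opposite directions. GCLC, the catalytic subunit, was at 37.8, 35.7 and 35.5 CPM in shSCUBE3-labelled libraries, against 49.1, 48.2 and 46.8 CPM in scramble libraries. Each shSCUBE3-labelled library was below each scramble library. The fold was 0.756 (95% interval 0.702 to 0.814; edgeR quasi-likelihood adjusted p = 6.05e-09).

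GCLM, the modifier subunit that raises the activity of the catalytic one, was at 80.7, 79.3 and 84.5 CPM in shSCUBE3-labelled libraries, against 64.9, 63.4 and 61.5 CPM in scramble libraries. Here the order of the groups was the reverse, again without overlap. The fold was 1.29 (95% interval 1.21 to 1.37; edgeR quasi-likelihood adjusted p = 1.34e-09). The number of GCLC reads per GCLM read was 0.468, 0.451 and 0.420 in shSCUBE3-labelled libraries, against 0.757, 0.761 and 0.761 in scramble libraries. The 3 scramble ratios were almost identical, and the shSCUBE3-labelled ratio was 0.587 times as large.

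TXNRD1, the cytosolic thioredoxin reductase and a selenoprotein, had the second largest fold of the 8 genes. It reached 803, 798 and 806 CPM in shSCUBE3-labelled libraries, against 354, 338 and 348 CPM in scramble libraries. The spread within either group was small beside the gap between them. The fold was 2.31 (95% interval 2.22 to 2.41; edgeR quasi-likelihood adjusted p = 9.05e-32). EID3, which lies within TXNRD1 in the annotation, had 11, 13 and 15 reads in shSCUBE3-labelled libraries and 2 reads in each scramble library.

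SRXN1 encodes sulfiredoxin, which repairs over-oxidised peroxiredoxins. It was at 131, 135 and 133 CPM in shSCUBE3-labelled libraries, against 80.7, 77.2 and 79.1 CPM in scramble libraries. The groups were well separated. The fold was 1.68 (95% interval 1.59 to 1.78; edgeR quasi-likelihood adjusted p = 1.79e-20). There were 6.03 ± 0.117 TXNRD1 reads per SRXN1 read in shSCUBE3-labelled libraries and 4.39 ± 0.0104 in scramble libraries (SD, n = 3 each).

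NQO1, a quinone reductase that is among the most widely used readouts of NRF2, was slightly lower. It was at 155, 146 and 152 CPM in shSCUBE3-labelled libraries, against 183, 179 and 187 CPM in scramble libraries. The shSCUBE3-labelled libraries were all below the scramble libraries. The fold was 0.825 (95% interval 0.785 to 0.867; edgeR quasi-likelihood adjusted p = 3.30e-09).

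HMOX1, the inducible heme oxygenase that breaks heme down to biliverdin, iron and carbon monoxide, changed most. It had 494, 519 and 446 reads in shSCUBE3-labelled libraries, against 39, 47 and 55 reads in scramble libraries, or 19.8, 20.0 and 18.0 CPM against 1.64, 2.24 and 2.48 CPM. Every shSCUBE3-labelled library was far above every scramble library. The fold was 9.13 (95% interval 7.72 to 10.8; edgeR quasi-likelihood adjusted p = 3.99e-25), and its log2 fold change lay at percentile 96.0 among all genes tested. Per NQO1 read there were 0.128 ± 0.00895 HMOX1 reads in shSCUBE3-labelled libraries and 0.0116 ± 0.00229 in scramble libraries (SD, n = 3 each).

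**Figure D2:**
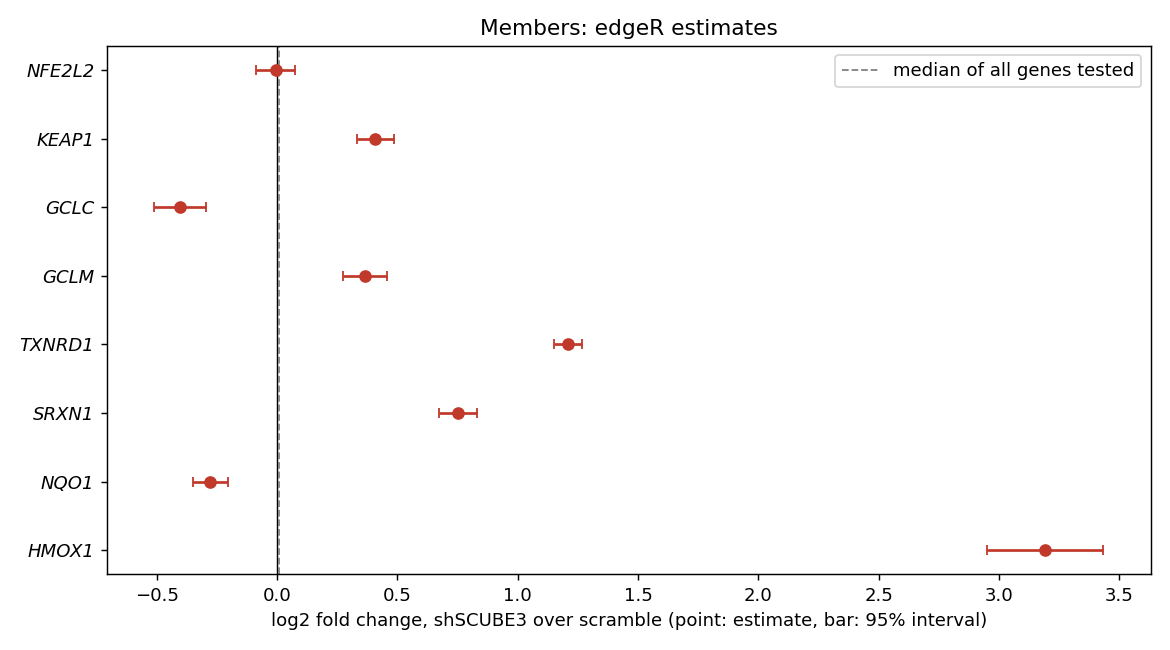
Log2 fold change of each gene, shSCUBE3-labelled over scramble, on the x axis (points: edgeR estimates; bars: 95% intervals), with the median of all genes tested dashed. HMOX1 stands at 3.19, TXNRD1 at 1.21 and SRXN1 at 0.75, GCLC at -0.40 and NQO1 at -0.28, and the interval of NFE2L2 spans 0.

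A difference from 0 was easily called in these libraries, so the same fit was also tested against a 1.5-fold change, which 45.9% of all genes passed. HMOX1, TXNRD1 and SRXN1 passed (edgeR glmTreat adjusted p = 1.57e-22, 2.82e-23 and 2.82e-05). KEAP1, GCLM, GCLC and NQO1 did not (adjusted p = 1 for each).

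The 4 ratios above (GCLC to GCLM, NFE2L2 to KEAP1, TXNRD1 to SRXN1 and HMOX1 to NQO1) each separated the groups completely. Each gave p = 0.1 in an exact two-sided permutation test with n = 3 per group, which is the smallest value the design allows, and 0.1 after Benjamini-Hochberg adjustment over the 4. The differences in log2 ratio were -0.77, -0.41, 0.46 and 3.48 in that order. Complete separation was also seen for 85.8% of single genes tested. Its share among other gene pairs was not examined, so it sets none of these ratios apart.

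**Figure D3:**
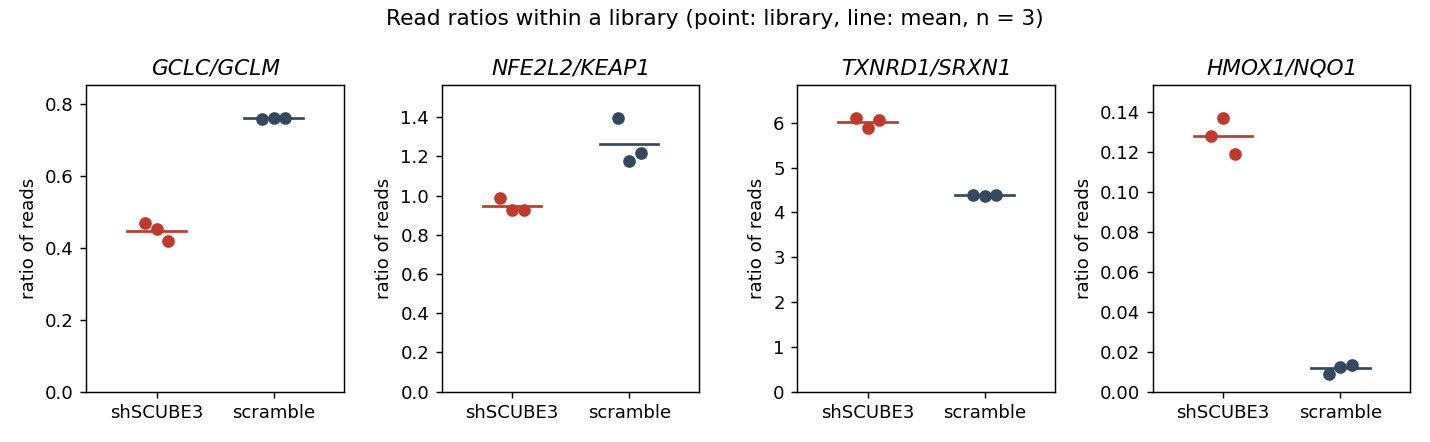
Reads of one gene per read of another within each library (points: libraries; lines: group means, n = 3), on linear axes that start at 0. GCLC per GCLM and NFE2L2 per KEAP1 are lower in shSCUBE3-labelled libraries, and TXNRD1 per SRXN1 and HMOX1 per NQO1 are higher.

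To set the levels of the genes beside each other, CPM were divided by the length of 1 GENCODE transcript per gene. The order of genes close in level may turn on which transcript is chosen, and the spread between libraries does not cover that choice. TXNRD1 led in both groups, with 204 ± 1.07 CPM per kb in shSCUBE3-labelled libraries and 88.2 ± 2.07 in scramble libraries (SD, n = 3 each). NQO1 was second, with 51.9 ± 1.52 CPM per kb in shSCUBE3-labelled libraries and 62.8 ± 1.40 in scramble libraries. In the shSCUBE3-labelled group SRXN1 (49.3 ± 0.761 CPM per kb), KEAP1 (47.6 ± 1.23) and NFE2L2 (46.7 ± 1.62) followed NQO1 closely, and the libraries of SRXN1 and KEAP1 overlapped, as did those of KEAP1 and NFE2L2. In scramble these 3 genes stood apart and in another order, NFE2L2 at 46.8 ± 2.99 CPM per kb, KEAP1 at 35.9 ± 1.40 and SRXN1 at 29.3 ± 0.654.

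The lowest levels per length belonged to the glutathione genes and HMOX1. GCLM had 16.8 ± 0.561 CPM per kb in shSCUBE3-labelled libraries and 13.0 ± 0.351 in scramble libraries (SD, n = 3 each). GCLC had 9.53 ± 0.326 CPM per kb in shSCUBE3-labelled libraries and 12.6 ± 0.309 in scramble libraries, where it overlapped with GCLM. HMOX1, at 10.6 ± 0.595 CPM per kb, was next to GCLC in shSCUBE3-labelled libraries, whereas at 1.16 ± 0.236 it was the lowest of the 8 in scramble libraries.

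**Figure D4:**
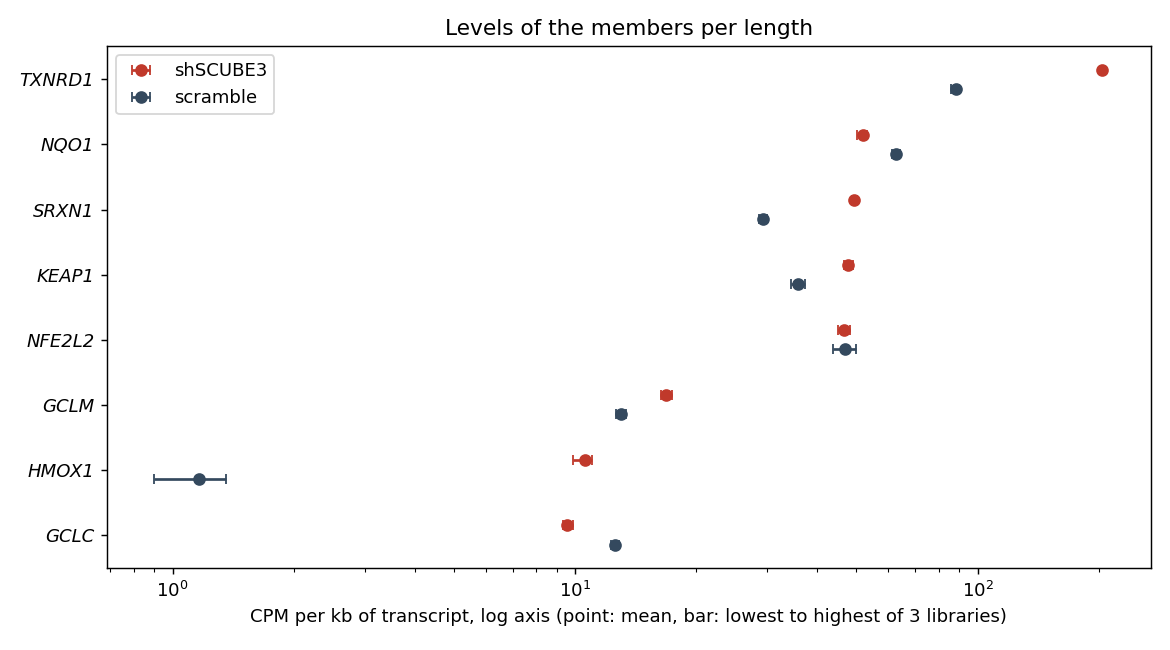
Level of each gene in CPM per kb of transcript on a log axis (points: group means; bars: lowest to highest of 3 libraries; shSCUBE3-labelled drawn above scramble). TXNRD1 is highest in both groups, and HMOX1 shows the widest gap, 10.6 against 1.16 CPM per kb.

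The promoter letters of the genes were read for the core of the antioxidant response element. RefSeq promoter windows of GRCh38.p14, from 250 bases before to 50 after an annotated start, were matched by symbol for 7 of the 8 genes, in 10 windows. HMOX1 had no entry. The core TGACNNNGC, searched on both strands, was in 4 of the 10 windows, from GCLM, KEAP1 and TXNRD1, and in 13.3% of all 35116 windows. The related TGAGNNNGC was in 5 of the 10 windows, from GCLM, KEAP1, NFE2L2, NQO1 and TXNRD1, and in 18.3% of all windows. The 110 bases before the start are given for the 4 windows in which that stretch holds the whole core, so that the matches can be compared. Each is written 5′ to 3′ along the gene's strand, with every match of the core in capitals.
GCLM, chr1:93909431-93909540, minus strand: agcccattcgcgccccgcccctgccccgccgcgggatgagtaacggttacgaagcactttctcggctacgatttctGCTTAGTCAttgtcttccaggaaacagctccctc
TXNRD1, upstream start, chr12:104215669-104215778, plus strand: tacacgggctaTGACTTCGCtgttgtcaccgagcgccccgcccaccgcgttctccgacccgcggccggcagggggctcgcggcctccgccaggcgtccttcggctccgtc
TXNRD1, downstream start, chr12:104286922-104287031, plus strand: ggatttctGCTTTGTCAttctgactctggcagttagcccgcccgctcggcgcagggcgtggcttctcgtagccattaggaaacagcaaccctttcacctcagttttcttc
KEAP1, chr19:10502772-10502881, minus strand: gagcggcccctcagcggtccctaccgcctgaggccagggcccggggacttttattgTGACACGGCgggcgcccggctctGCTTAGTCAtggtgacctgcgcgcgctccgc

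In GCLM and KEAP1 the match nearest the start read GCTTAGTCA in both, which is the core on the opposite strand, and at the downstream start of TXNRD1 it read GCTTTGTCA. Counted with -1 as the last base before the start, these matches began at position -34 in GCLM, -31 in KEAP1 and -102 in TXNRD1. The other matches, TGACACGGC in KEAP1 and TGACTTCGC at the upstream start of TXNRD1, lay on the gene's own strand, and the window of that TXNRD1 start held 1 more match, across the start itself. All 3 genes were higher in shSCUBE3-labelled libraries, as were 43.4% of all genes tested. SRXN1 was higher too and had neither form in its window, nor had GCLC, which was lower. NQO1, which was lower, and NFE2L2, which was not called, had only the related form. Whether the matches bear on these directions was not tested. These are matches of letters in a short window and say nothing of binding, and the reads had been counted on hg19.

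The rest of the pathway was followed through 85 further genes in 7 lists by role, all present in the files, of which 80 were tested. In shSCUBE3-labelled libraries 54 were higher and 21 lower, and 5 did not pass (edgeR quasi-likelihood test), beside the 43.4% higher and 42.5% lower among all genes. Their median log2 fold change was 0.49, against 0.01 over all genes tested. Regardless of direction, the median size was 0.65 for these genes and 0.64 over all genes tested. The lists were chosen with earlier results of these data known, so their counts and medians are descriptive only. A change of at least 2-fold in either direction was seen in 24 of the 80, and in 4247 of all 13606 genes.

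Among the 15 genes that turn NRF2 over or share its DNA sites, 10 were higher and 4 lower (median log2 fold change 0.47). SQSTM1, the autophagy receptor p62 that binds KEAP1, rose to 687 ± 7.97 CPM in shSCUBE3-labelled libraries, against 270 ± 6.59 CPM in scramble libraries (SD, n = 3 each; log2 fold change 1.35 ± 0.03, SE). The ligase scaffold CUL3 fell to 107 ± 2.09 CPM in shSCUBE3-labelled libraries, against 220 ± 5.08 CPM in scramble libraries, while its RING partner RBX1 rose (log2 fold change 1.68 ± 0.06). DPP3, a peptidase that competes for KEAP1, rose as well (1.11 ± 0.05), and PGAM5, a mitochondrial phosphatase bound by KEAP1, did not pass (-0.05 ± 0.05).

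Of the 17 tested genes of glutathione synthesis and use, 11 were higher and 5 lower (median log2 fold change 0.56). GPX3, a secreted glutathione peroxidase, rose to 81.7 ± 2.85 CPM in shSCUBE3-labelled libraries, against 5.23 ± 0.735 CPM in scramble libraries (SD, n = 3 each). SLC7A11, the transporter that brings in cystine, fell to 31.5 ± 1.68 CPM in shSCUBE3-labelled libraries, against 85.2 ± 3.37 CPM in scramble libraries. GGT1, which breaks down glutathione outside the cell, rose to 10.4 ± 0.208 CPM in shSCUBE3-labelled libraries, against 0.654 ± 0.278 CPM in scramble libraries, and the peroxidase GPX1 had a log2 fold change of 0.84 ± 0.04 (SE). The second enzyme of glutathione synthesis, GSS, did not pass (-0.05 ± 0.04), and GPX2 had 0 reads in all libraries.

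Of 14 thioredoxin and peroxiredoxin genes, 8 were higher and 5 lower (median log2 fold change 0.28). The peroxiredoxin genes PRDX1 (0.68 ± 0.03, SE), PRDX2 (1.10 ± 0.04) and PRDX3 (0.99 ± 0.03) rose, PRDX5 fell (-0.65 ± 0.04) and the sestrin gene SESN1 did not pass (-0.16 ± 0.09). Of 6 genes of NADPH supply, 4 were higher and 2 lower (median 0.33). TALDO1 (0.75 ± 0.03) and TKT (0.17 ± 0.03), enzymes of the pentose phosphate pathway, and ME1 (0.50 ± 0.06), an NADPH-forming malic enzyme, rose.

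Of 9 genes of heme and iron handling, 5 were higher and 3 lower (median log2 fold change 0.19). Both biliverdin reductase genes, whose enzymes act on the product of heme oxygenase, rose, BLVRB by 1.82 ± 0.07 and BLVRA by 1.34 ± 0.06 on the log2 scale (SE). The heme transporter SLC48A1 (-1.54 ± 0.07) and the heme exporter FLVCR1 (-0.98 ± 0.07) fell, and the iron exporter SLC40A1 did not pass (-0.22 ± 0.12).

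Detoxification and export genes had the highest median of the 7 lists, 1.53, with 13 of 15 tested genes higher and 2 lower. ABCC3, an export pump, rose to 46.7 ± 1.62 CPM in shSCUBE3-labelled libraries, against 5.31 ± 0.758 CPM in scramble libraries (SD, n = 3 each). The quinone reductase NQO2 rose to 54.8 ± 2.83 CPM in shSCUBE3-labelled libraries, against 14.6 ± 0.282 CPM in scramble libraries, whereas its relative NQO1 had fallen. AKR1C3, an aldo-keto reductase (log2 fold change 3.41 ± 0.11, SE), and TRIM16 (2.27 ± 0.08) rose too. The AKR1C genes resemble one another, and reads that aligned to more than 1 of them may have been left out of the counts. AKR1B10, AKR1C2, CES1 and ALDH3A1 had at most 18 reads in any library and were not tested. Of the superoxide and hydrogen peroxide enzymes, SOD2 (0.36 ± 0.04), SOD3 (0.71 ± 0.10) and CAT (0.11 ± 0.05; edgeR adjusted p = 0.0477) rose and SOD1 did not pass (-0.02 ± 0.03).

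**Figure D5:**
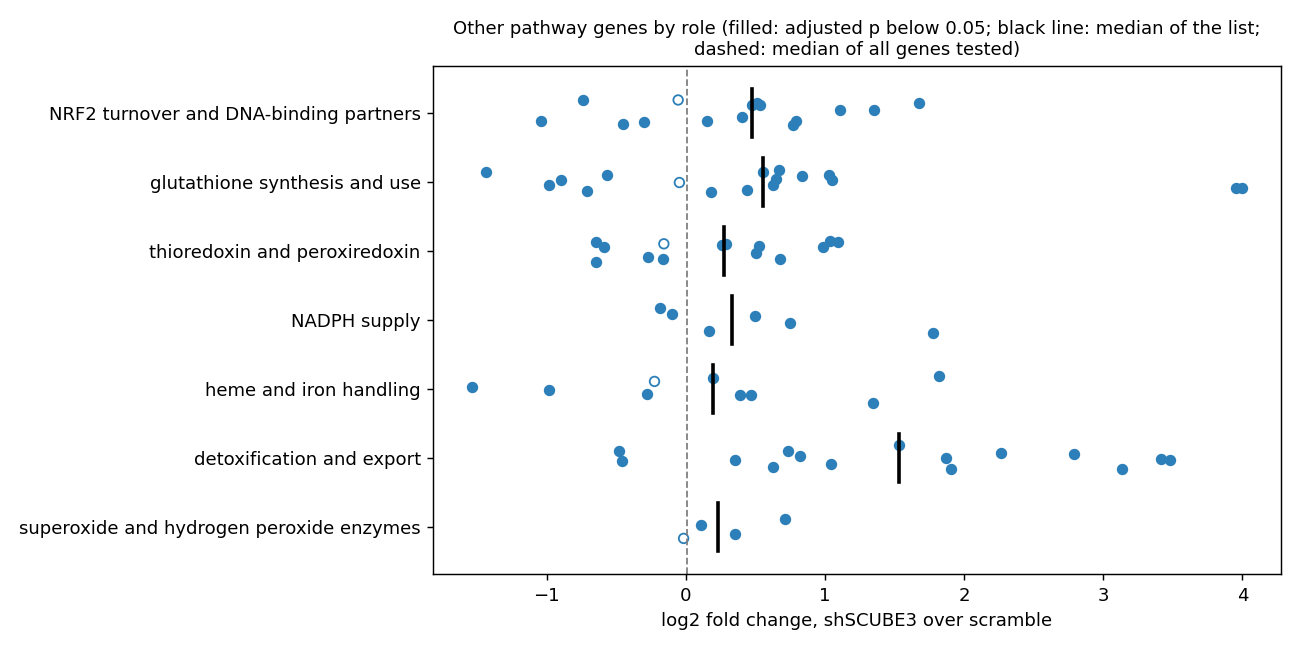
Log2 fold change, shSCUBE3-labelled over scramble, of the 80 tested genes of the wider pathway, in 7 rows by role (filled: adjusted p below 0.05; black lines: list medians; dashed: median of all genes tested; vertical scatter carries no value). Every list has its median above that of all genes, 0.01, and detoxification and export reaches 1.53. The lists were chosen with earlier results of these data known.

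The genes with the profile most like each of the 8 were found by the root mean square difference in log2(CPM + 1), centred per gene, over the 6 libraries. They were LARP7 and FAM200A for NFE2L2, SWT1 and ARHGAP23 for KEAP1, ZCCHC11 and EIF3E for GCLC, and RAB18 and C7orf47 for GCLM. For TXNRD1 they were GPC1 and LAMB1, for SRXN1 HINT1 and KAT2A, for NQO1 CHCHD3 and YIPF6, and for HMOX1 RELB and COL6A2. Because libraries of a group were close to each other, this measure mainly finds genes with a similar difference between the groups. The difference was 0.0440 for RELB, the closest to HMOX1, and 0.00539 for ZCCHC11, the closest to GCLC. RELB and COL6A2 had log2 fold changes of 2.84 and 2.80, against 3.19 for HMOX1. Whether any of these genes share regulation was not tested. RELB, an NF-kB subunit, had 43.7 ± 2.21 CPM in shSCUBE3-labelled libraries and 6.13 ± 0.991 CPM in scramble libraries (SD, n = 3 each).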

How the data were processed

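The authors deposited unnormalized read counts by gene symbol in 1 file per library. The submitters' processing notes name hg19, TopHat2 2.0.8b, HTSeq and bcl2fastq, and per the labels' protocols the libraries were stranded poly(A) libraries read as single reads of 50 bases. The sources used here give neither HTSeq's settings nor the annotation. The 5 summary lines, 41.1% ± 0.150 of the total in shSCUBE3-labelled files and 49.4% ± 0.370 in scramble files (SD, n = 3 each), were left out.

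Samples were grouped by title. Of the 23228 genes, 13606 passed edgeR's filterByExpr. They were fitted with TMM factors and group alone by the robust quasi-likelihood method of edgeR 4.0.16 (R 4.3.3), and two-sided p-values were adjusted by Benjamini-Hochberg over all of them (threshold 0.05). CPM use the same scaling, SEs were obtained from the F statistics, and reads carry no molecular identifiers. The fit was first checked on simulated counts in which few genes changed, 50 of each size among 13606. It recovered 62% of 1.2-fold, 86% of 1.5-fold, 90% of 2-fold and 98% of 4-fold changes. In the data most genes differed, a setting that this check does not cover. Replicates were no copies of each other (chi-square over degrees of freedom 1.70 to 3.59), and each counted as 1 sample.

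The genes followed, the lists and the tests were chosen with earlier results of these data known. Named genes were the 8 pathway genes, SCUBE3, up to 4 genes per list by adjusted p, those that did not pass, the 2 nearest profiles per gene, and markers at 0. S100A4, FOXA1, CDH1, GATA3, KRT19, CD14, PDGFRA, AGPS and EID3 were added after their values were seen. Some genes that the rule names are not reported here. Lengths came from GENCODE 29 (GRCh38), with the longest transcript of the best APPRIS principal level. Alternatives were other scalings and filters, DESeq2 1.42.0, limma-voom (limma 3.58.1), leaving out single libraries, a stricter threshold (0.01), the replicate number as a block and a test against a 1.5-fold change.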

Additional observations from a re-analysis of the deposited data

Results flagged for a closer look

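As a share of the whole file total, reads lying in more than 1 gene, which no comparison used, were higher in shSCUBE3-labelled files. They made up 0.593% ± 0.00441 there and 0.537% ± 0.00504 in scramble files (SD, n = 3 each). That total includes the summary lines, 41.1% ± 0.150 of it in shSCUBE3-labelled files and 49.4% ± 0.370 in scramble files. The direction of this small difference therefore depends on the total used, and it is not a result about reads in genes. The larger classes of reads given to no gene were lower in shSCUBE3-labelled files: reads aligned to several places were 29.4% ± 0.175 of the total there and 34.1% ± 0.106 in scramble files, and reads outside annotated genes were 11.1% ± 0.0540 in shSCUBE3-labelled files and 14.7% ± 0.275 in scramble files. The sources used here do not say whether a read aligned to several places entered the total once or more often. The part of these shares in the results was not tested.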

How the results depend on the processing

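Across 17 alternative settings, 254 of 268 recomputed values kept their direction and their side of the threshold, or stayed within 1.5 times the reported count. The test against a 1.5-fold change (edgeR glmTreat) called 3307 genes higher and 2944 lower, against 5899 and 5782; of the 8 pathway genes 3 higher and 0 lower (also 0 lower at an unadjusted p under 0.05, where edgeR and DESeq2 against no change each called 2); and of the wider pathway 31 higher and 9 lower. Under it KEAP1 (0.41), GCLM (0.36), GCLC (-0.40) and NQO1 (-0.28) lost their calls with their estimates as reported, since the test is against a larger change. The sign of NFE2L2, which was not called, turned with library totals (0.045), and leaving out 1 library gave -0.058 to 0.034, positive without shSCUBE3 replicate 2 or scramble replicate 1. For SCUBE3 leaving out 1 library gave -0.050 to 0.080, negative without scramble replicate 3. With the replicate number as a block, 5919 genes were higher and 5787 lower, and 5 of the 8 genes were higher and 2 lower. Deviations of same-numbered libraries correlated at 0.0779, 0.0623 and -0.00188, so the numbers were not taken as pairs; numbers 1 and 2 correlated best with their own number and number 3 did not. HMOX1 rested on 39 to 55 reads in scramble libraries.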
